A study of Musca domestica with 8 samples.

Results

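Transposons and retroelements are DNA sequences that move within a genome, and 87 contigs of the housefly (*Musca domestica*) transcriptome assembly were annotated as such, out of 35834 contigs in all. A contig was taken when its deposited annotation held the word transposase, transposon, transposable, reverse transcriptase, gag-pol, pol polyprotein, mariner or integrase, named no virus or bacterium as the source organism, and had at least 10 counts summed over all samples. The choice used the annotation and the summed count only, not the differences between samples. The words matched 152 contigs, of which 9 named a bacterium. Of the remaining 143 contigs, 37 had between 1 and 9 counts and 19 had none. The least counted contig taken was M_dom_c835, a *pol* polyprotein match, with 10 counts, and the nearest contigs left out were M_dom_c19386 and M_dom_c31421 with 9 counts each.

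The 8 samples, No.1 to No.8, all carried the label of strain 791spin, which was obtained by spinosad selection of the multi-resistant strain 791a and is therefore 1 selected laboratory strain. RNA came from whole bodies of adults aged 5 to 7 days, male and female together, in pools of about 60 sugar-fed flies, and a normalized cDNA library, in which abundant transcripts are reduced, was described for every sample. The series text also speaks of a susceptible strain, but no sample was labelled so, and therefore no groups were compared. Nothing states that the samples came from separate cultures, so the spread between them may be technical. Every total exceeded the number of pyrosequencing reads that the study describes for its library, so the counts are not those reads counted once each, and whether the normalized library applies to them is not stated. Sample totals ran from 10266664 to 16115208 counts, the latter in No.1. Levels are given as counts per 1000000 counts of the sample (CPM), where 3 counts corresponded to 0.186 to 0.292 CPM, or, for comparisons between contigs, per kilobase of contig as well (RPKM). The samples did not hold female-specific transcripts in equal amounts, although the flies were described as male and female together. The 27 contigs of yolk protein, the food store of the egg, summed to between 7.19 CPM for No.3 and 3934 CPM for No.8. In pooled flies, fewer cells of a kind cannot be told apart from less RNA per cell.

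Elements fall into a few broad kinds. Retroelements are copied through RNA by a reverse transcriptase; those with long terminal repeats (LTR) carry *gag* and *pol* genes as retroviruses do and include the gypsy, copia and BEL groups, whereas non-LTR elements carry an endonuclease and a reverse transcriptase. DNA transposons, such as mariner, hAT and pogo elements, are cut out and inserted again by a transposase. In flies, both kinds are held down in the germ line by small RNAs bound to PIWI proteins and in other tissues mainly by small interfering RNAs bound to Argonaute-2. A transcript with such an annotation can come from an active copy, an old defective copy or a host gene that contains one, and the counts do not separate these.

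By annotation, 52 contigs matched a reverse transcriptase or a named retroelement family and held 71.3% of the 33373 counts on the 87 contigs. Another 27 contigs matched a transposase or a DNA element family and held 9.56%. In 8 contigs, with 19.2% of the counts, the annotation named a transposon without a reverse transcriptase, transposase or family. These are called transposons of unnamed kind here. Among them, M_dom_rep_c9551 with 4844 counts was annotated as a retrotransposon protein, which is a retroelement by name. The 71.3% given for the retroelement kind leaves it out. Most annotations gave no family. A reverse transcriptase of no stated family was matched by 23 contigs with 47.3% of the counts, a transposase without one of the family words used here by 20 contigs with 6.37%, and a *gag-pol* or *pol* protein of no stated family by 14 contigs with 2.601%. Among the named families, the gypsy group had 6 contigs with 12.2% of the counts, named non-LTR elements 6 contigs with 7.40%, mariner/Tc1 3 contigs (all Tc3 matches), hAT 2, pogo/Tigger 2, BEL 2 and copia 1. The only piggyBac match had fewer than 10 counts, and no contig matched a Helitron. Of the 20 transposase contigs, 6 with 1021 counts matched MhmaT1, a maT element related to mariner and Tc1, and were kept apart from the 3 Tc3 contigs. No contig was annotated as telomerase.

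The matched proteins came mostly from other animals. *Drosophila melanogaster* was named in brackets by 14 contigs, *Aedes aegypti* by 9, the spider *Misgolas hubbardi* by 7 and the tick *Rhipicephalus pulchellus* by 7, while 11 contigs had no species in brackets. A single contig, M_dom_c27805, matched a transposase of the housefly itself, with 25 counts in all. Both contigs matching Hermes, a hAT transposon first described in the housefly, stayed under the minimum, with 4 counts for M_dom_c29634 and 3 counts for M_dom_c23397. The 87 contigs matched 54 distinct proteins, and 49 of them shared their protein with at least 1 other contig. Such contigs may be pieces or near-identical copies of the same element. No source used here states how reads that fit several copies were counted, so the count of a single contig is uncertain. The sums over families may be affected as well, and this was not tested.

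The contigs were low in level. Their length ranged from 447 to 5444 bp with a median of 773 bp, near the median of 772.5 bp over all 28704 contigs with at least 10 counts. The median of the mean level was 0.771 RPKM, against 3.31 RPKM over all those contigs. Mean levels ranged from 0.0901 RPKM to 65.8 RPKM. At least 1 count in every sample was found for 49 of the 87 contigs, or 56.3%, against 78.6% over all contigs with at least 10 counts. Of the 39 contigs with 100 or more counts, 38 were detected in every sample. The number detected was highest in No.1, with 83 contigs, and lowest in No.6, with 70 contigs, and No.1 was also the most deeply counted sample.

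Summed over the 87 contigs, the level was 530 CPM for No.1, 219 CPM for No.2, 510 CPM for No.3, 268 CPM for No.4, 244 CPM for No.5, 217 CPM for No.6, 485 CPM for No.7 and 281 CPM for No.8. No.1, No.3 and No.7 stood at 485 CPM or more, and the other samples at 281 CPM or less. The share of all counts was 0.0344% ± 0.0138 (SD, n = 8), and the highest sample had 2.44 times the level of the lowest. When the samples were scaled by TMM factors in place of totals, all values of No.3 were lowered by 0.27 and all values of No.5 were raised by 0.27 on the log2 scale, and the other samples moved by less than 0.1. The sum then came to 422 CPM for No.3 and 295 CPM for No.5, so No.5 lay above No.4 (269 CPM) and No.8 (274 CPM) under TMM and below both under totals. No.3 and No.7 changed places as the second highest sample, and No.2 and No.6 as the lowest. No.1, No.3 and No.7 were the 3 highest samples under both scalings, with No.1 first.

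**Figure D1:**
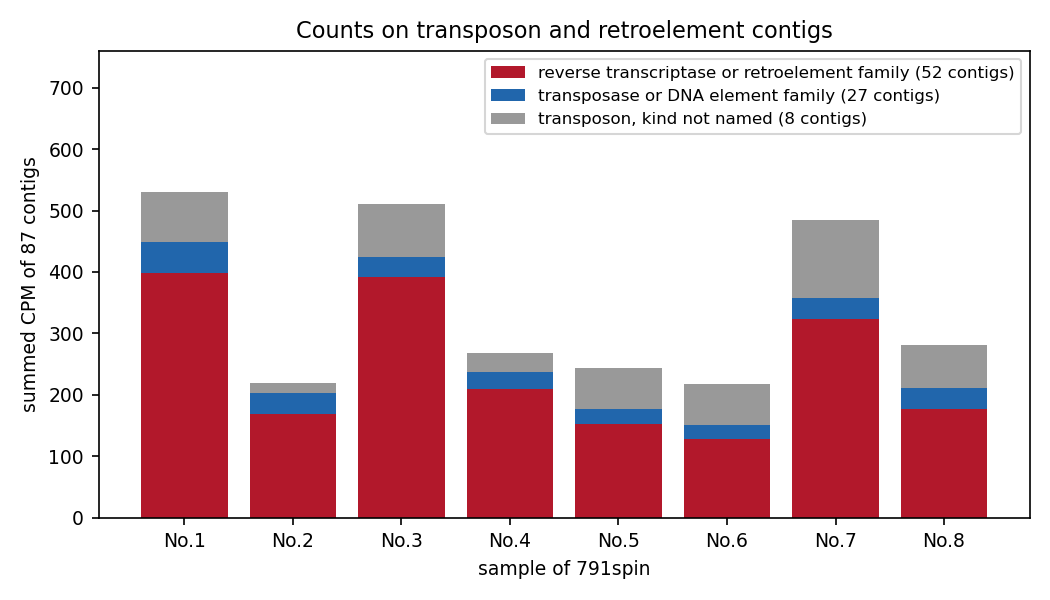
Summed level (CPM) of the 87 contigs in each sample, as stacked bars split into reverse transcriptase or retroelement families (red), transposase or DNA element families (blue) and transposons of unnamed kind (grey). The grey part includes the retrotransposon match M_dom_rep_c9551. No.1, No.3 and No.7 reached 530, 510 and 485 CPM, and the red part made up most of every bar.

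Contigs of the retroelement kind summed to 398 CPM for No.1, 169 CPM for No.2, 392 CPM for No.3, 209 CPM for No.4, 152 CPM for No.5, 128 CPM for No.6, 324 CPM for No.7 and 178 CPM for No.8. They followed the order of the total at its upper end. The retrotransposon match M_dom_rep_c9551, grouped with the transposons of unnamed kind, is not in these sums. Contigs of the DNA transposon kind summed to 50.2 CPM for No.1, 33.9 CPM for No.2, 32.8 CPM for No.3, 28.4 CPM for No.4, 24.998 CPM for No.5, 23.0 CPM for No.6, 33.5 CPM for No.7 and 33.1 CPM for No.8. Only No.1 stood clear of the others there, and the highest sample had 2.18 times the lowest, against 3.11 times for the retroelement kind. The difference between these ratios was not tested.

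A few contigs held most of the counts. Together, the 10 with the most counts accounted for 73.6% of the 33373, and for between 66.0% in No.1 and 82.7% in No.7 of the counts of a single sample. Without them, the other 77 contigs summed to 180 CPM for No.1, 73.3 CPM for No.2, 110 CPM for No.3, 74.5 CPM for No.4, 46.1 CPM for No.5, 51.5 CPM for No.6, 84.0 CPM for No.7 and 84.4 CPM for No.8. No.1 was then the highest by a wide margin, with No.3 next, and No.7 no longer stood apart from No.8.

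Per kilobase of contig, the highest mean level was that of M_dom_rep_c9551, which matched a retrotransposon protein of the tsetse fly *Glossina morsitans morsitans*, with 65.8 RPKM. M_dom_c3591, a reverse transcriptase match to *A. aegypti*, followed with 34.4 RPKM, M_dom_rep_c8896, a match to the *pol* protein of transposon 297, with 31.4 RPKM, and M_dom_rep_c22503, annotated as a putative tick transposon, with 16.5 RPKM. Their coefficients of variation over the samples, 56.5%, 69.4%, 58% and 78.6%, were large, so neighbours in this order are not separated beyond their spread.

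M_dom_c3591 had the most counts of all 87 contigs, 6973 over 2056 bp. Its level was 139.6 CPM for No.1, 32.7 CPM for No.2, 136 CPM for No.3, 35.9 CPM for No.4, 59.3 CPM for No.5, 25.1 CPM for No.6, 107 CPM for No.7 and 30.2 CPM for No.8. Every odd-numbered sample was above every even-numbered one. The labels name no difference between odd and even samples. Over the 52 contigs that averaged at least 5 counts per sample, this order was found for 3 (5.77%), against 5.8% of the 23597 contigs of the whole table that passed the same minimum, and the reverse order for none, against 8.05%. The other such contigs were M_dom_c1592 and M_dom_c35351, the latter a *gag-pol* polyprotein match with 149 counts. In M_dom_c35351 the order rests on a near tie of 1.5495 CPM for No.7 (18 counts) and 1.5494 CPM for No.8 (17 counts).

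M_dom_rep_c9551 behaved differently. It had 59.4 CPM for No.1, 10.0 CPM for No.2, 48.0 CPM for No.3, 16.7 CPM for No.4, 59.1 CPM for No.5, 57.3 CPM for No.6, 105 CPM for No.7 and 58.7 CPM for No.8. Thus No.2 and No.4 were low, No.7 was high, and the other samples lay between 48.0 and 59.4 CPM. This contig alone made up most of the transposons of unnamed kind, whose summed mean was 68.1 CPM with it and 16.4 CPM without it.

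Among the other abundant reverse transcriptases, M_dom_c3872, annotated as a partial reverse transcriptase-like protein of *A. aegypti*, had 48.3 CPM for No.1, 15.4 CPM for No.2, 18.4 CPM for No.3, 9.15 CPM for No.4, 9.52 CPM for No.5, 6.82 CPM for No.6, 45.9 CPM for No.7 and 14.4 CPM for No.8. No.1 and No.7 were high, at more than 2 times any other sample. M_dom_rep_c5815, a match to a reverse transcriptase of *D. melanogaster* over a contig of 3534 bp, had 16.8 CPM for No.1, 48.7 CPM for No.2, 22.7 CPM for No.3, 21.7 CPM for No.4, 10.2 CPM for No.5, 8.47 CPM for No.6, 9.13 CPM for No.7 and 15.8 CPM for No.8. Its highest sample was No.2, which was the lowest or close to the lowest sample of M_dom_rep_c9551 and M_dom_rep_c8896. M_dom_c5200, named as a probable reverse transcriptase of the house mosquito, had 27.6 CPM for No.1, 8.29 CPM for No.2, 33.1 CPM for No.3, 16.5 CPM for No.4, 12.5 CPM for No.5, 17.6 CPM for No.6, 25.8 CPM for No.7 and 13.1 CPM for No.8. With a ratio of highest to lowest sample of 3.99 it was among the steadier abundant contigs.

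Another reverse transcriptase was concentrated in No.1. M_dom_rep_c6712, which matched the same *A. aegypti* protein as M_dom_c3591, had 20.7 CPM for No.1, 3.52 CPM for No.2, 0.575 CPM for No.3, 0.472 CPM for No.4, 0.385 CPM for No.5, no count in No.6, 0.172 CPM for No.7 and 0.273 CPM for No.8. No.1 and No.2 were the highest samples, and the remaining ones were at 0.575 CPM or below. The 2 contigs thus shared a protein match but not a pattern, since M_dom_c3591 was nearly as high in No.3 as in No.1 by totals. Under TMM, M_dom_c3591 had 137 CPM for No.1 and 112 CPM for No.3, and M_dom_rep_c6712 had 20.3 CPM and 0.476 CPM. No.1 and No.2 were both above the other 6 samples in 4 of the 52 contigs (7.69%), against 6.05% of all contigs tested, and both below them in 1 contig (1.92%), against 8.02%.

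In the gypsy group, LTR elements related to retroviruses, the most counted contig was M_dom_rep_c8896, which matched transposon 297 of *Drosophila*. It had 4.41 CPM for No.1, 4.42 CPM for No.2, 36.5 CPM for No.3, 42.7 CPM for No.4, 22.4 CPM for No.5, 24.1 CPM for No.6, 40.3 CPM for No.7 and 35.0 CPM for No.8. No.1 and No.2 were at about the same low level and did not overlap with the other samples. It was the contig counted above as low in both.

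A second gypsy group element, TED of the cabbage looper moth, was matched by 3 contigs. The most counted of them, M_dom_c1803, had 12.3 CPM for No.1, 5.04 CPM for No.2, 43.1 CPM for No.3, 20.3 CPM for No.4, 2.21 CPM for No.5, 1.95 CPM for No.6, 8.52 CPM for No.7 and 4.10 CPM for No.8. No.3 and No.4 were highest and No.5 and No.6 lowest, with a ratio of highest to lowest of 22.1. M_dom_c1457, another TED match, was also highest in No.3, at 8.43 CPM, but the third, M_dom_c4738, was highest in No.2, at 2.07 CPM. A match to the Tom element of *Drosophila ananassae*, M_dom_c2092, had 5.37 CPM for No.3, 2.36 CPM for No.4 and no more than 1.61 CPM elsewhere. Summed over its 6 contigs, the gypsy group had 45.2 ± 26.04 CPM (SD, n = 8), of which 19.01 CPM remained without M_dom_rep_c8896.

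The copia group was represented by M_dom_c1592 alone, a contig of 501 bp that matched a Ty1-copia protein of rice. It had 23.1 CPM for No.1, 3.16 CPM for No.3, 2.40 CPM for No.5 and 2.58 CPM for No.7. No.2, No.6 and No.8 had 1 count each and No.4 had 2 counts. Odd-numbered samples thus lay above the level of 3 counts and even-numbered ones below it, and the mean of 3.96 CPM over the 8 samples fell to 1.23 CPM when No.1 was left out. The BEL group, the remaining group of LTR elements, had 2 contigs, and the more counted one, M_dom_c22236, ranged from 0.288 CPM for No.5 to 2.73 CPM for No.1, with No.3 next at 2.30 CPM.

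Of the named non-LTR elements, M_dom_c20339, an endonuclease-reverse transcriptase match to the silkworm, had 20.4 CPM for No.1, 15.5 CPM for No.2, 21.9 CPM for No.3, 15.8 CPM for No.4, 10.0 CPM for No.5, 13.1 CPM for No.6, 32.3 CPM for No.7 and 10.8 CPM for No.8. It ranged 3.23-fold between samples, the least among the 10 most counted contigs. M_dom_c710, a contig of 3060 bp annotated as a non-LTR retrotransposon, had its highest levels of 13.96 CPM for No.1 and 12.6 CPM for No.3 and its lowest of 1.95 CPM for No.6. The *gag-pol* contigs of unnamed family were low, and the most counted, M_dom_c24750, which matched a *gag-pol* precursor of *D. melanogaster*, ranged from 0.760 CPM for No.2 to 4.22 CPM for No.3.

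The DNA transposon contigs summed to less than the retroelement contigs, but per kilobase the medians of the mean levels were close, at 0.758 RPKM for the former and 0.742 RPKM for the latter. M_dom_rep_c9621, the most counted transposase, matched the MhmaT1 transposase of the spider *M. hubbardi* and had 12.3 CPM for No.1, 3.66 CPM for No.2, 8.62 CPM for No.3, 4.62 CPM for No.4, 5.96 CPM for No.5, 3.604 CPM for No.6, 10.9 CPM for No.7 and 6.38 CPM for No.8. No.1, No.7 and No.3 were its highest samples, as they were for the total. M_dom_rep_c16404, a match to the transposase of the hAT element Hobo, ranged only 3.14-fold, from 1.95 CPM for No.6 to 6.11 CPM for No.7. M_dom_rep_c7198, which matched the pogo element of *D. melanogaster*, had 2.05 CPM for No.1, 9.87 CPM for No.2, 4.02 CPM for No.3, 4.81 CPM for No.4, 1.73 CPM for No.5, 2.14 CPM for No.6, 3.62 CPM for No.7 and 7.02 CPM for No.8. Here No.2 and No.8 were highest and No.1 was among the lowest.

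Another 3 contigs matched a Tc3 transposase of the salmon louse, a member of the mariner/Tc1 family. M_dom_c24156 had 3.97 CPM for No.1 and between 0.287 and 1.03 CPM in the other 7 samples, and it set the sum of the 3 contigs, which was 4.90 CPM for No.1 and no higher than 1.46 CPM in any other sample. Together with the 6 MhmaT1 contigs the sum was 23.8 CPM for No.1, 7.18 CPM for No.2, 13.03 CPM for No.3, 9.91 CPM for No.4, 9.13 CPM for No.5, 6.92 CPM for No.6, 15.3 CPM for No.7 and 10.8 CPM for No.8. No.1 was still the highest sample there, followed by No.7 and No.3. The contig closest to a host gene by annotation, M_dom_rep_c9941, matched a Tigger-derived protein of an ant and had 36 counts, with 13 of them in No.2 and none in No.3. The housefly transposase match M_dom_c27805 had 10 of its 25 counts in No.3 and none in No.2 and No.8.

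**Figure D2:**
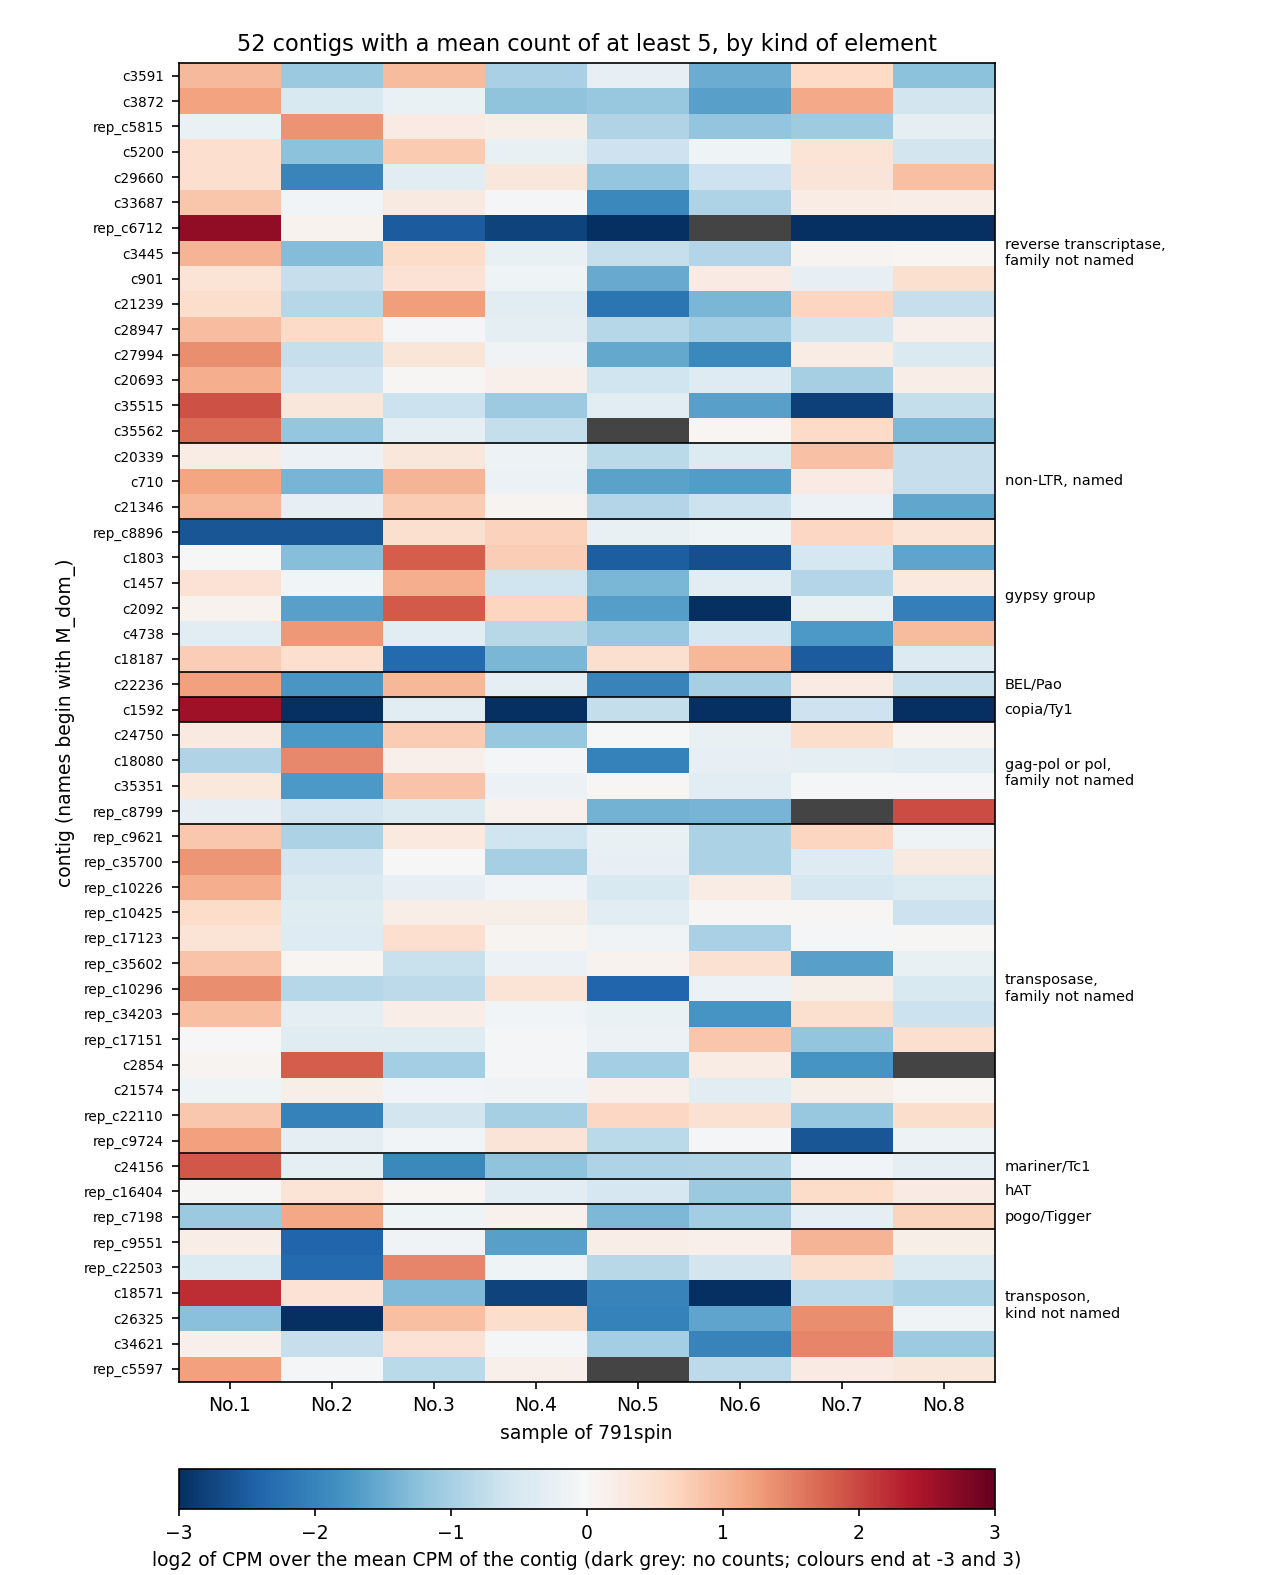
Level of each of the 52 contigs averaging 5 counts or more, in each sample, as the log2 of its CPM over its mean CPM (red above, blue below, dark grey no counts), grouped by kind of element. The column of No.1 is mostly red, while single contigs such as rep_c8896, c1803 and rep_c5815 have other samples at their highest.

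Whether contigs varied between samples beyond counting error was tested with a chi-square test over all 23597 contigs that averaged at least 5 counts, adjusted by the Benjamini-Hochberg method at 0.05. Of the 52 element contigs that reached this minimum, 48 varied (92.3%), against 95.1% of all contigs tested. Such variation was therefore the rule in the whole table. All 30 tested contigs of the retroelement kind and all 6 of unnamed kind passed, as did 12 of the 16 of the DNA transposon kind. The 4 that did not pass were transposase matches with 58 to 138 counts, M_dom_rep_c10425, M_dom_rep_c17123, M_dom_rep_c17151 and M_dom_c21574. The flattest, M_dom_c21574, ranged from 0.487 CPM to 0.690 CPM. A test that missed the threshold at these low counts does not show that they were constant. With all 28704 contigs of at least 10 counts tested, 70 of the 87 varied (80.5%), against 88.6% of all, and among the 35 with 10 to 39 counts there were 22 (62.9%).

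A ratio of highest to lowest sample of at least 10, with the lowest level taken as no less than 3 counts, was reached by 11 of the 52 contigs (21.2%), against 20.2% of all contigs tested. They were 6 contigs of the retroelement kind, 4 of unnamed kind, among them the retrotransposon match M_dom_rep_c9551, and 1 DNA transposon, M_dom_c24156. The median ratio was 6.16 over the 52 contigs and 5.02 over all contigs tested. It was 7.12 for the 30 contigs of the retroelement kind, with a median of 235 counts each, and 4.68 for the 16 of the DNA transposon kind, with a median of 112 counts, and this difference was not tested. The median tagwise dispersion estimated by edgeR, which measures variance between samples beyond counting error, was 0.378 ± 0.122 (jackknife SE over 8 samples) for the 52 contigs and 0.303 ± 0.0918 for all contigs tested. Both errors come from leaving out the same samples, so they do not give the error of the difference, which was not tested. Whichever sample was left out, the median was higher for the element contigs, as with 0.283 against 0.219 without No.2 and 0.423 against 0.324 without No.8. These medians share most of their samples and contigs, so they are not separate tests. The element contigs and all contigs were also not matched for level. A mean count of at least 50 was reached by 17 of the 52 element contigs and by 11890 of all 23597 contigs tested. The part of level in the higher ratios and dispersions was not tested.

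**Figure D3:**
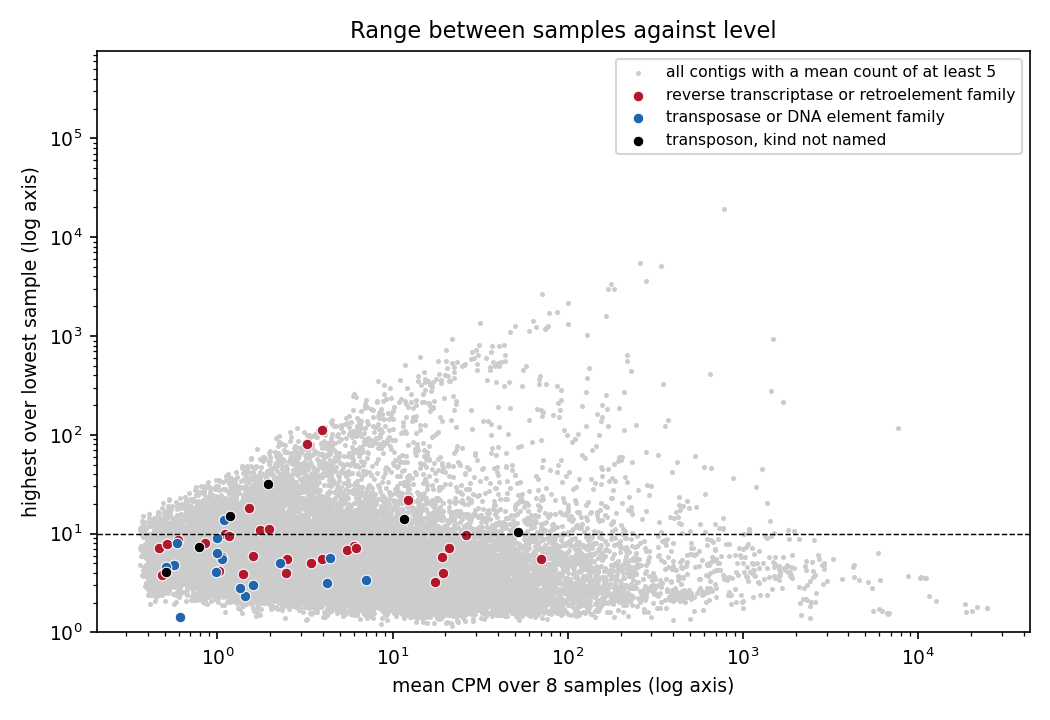
Highest over lowest sample level (log axis, lowest taken as no less than 3 counts) against mean CPM (log axis) for the 52 element contigs, coloured by kind, and all 23597 contigs tested (light grey). The dashed line marks a ratio of 10, passed by 11 element contigs, and all but 1 of the blue DNA transposon points lie below it.

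The sample in which a contig had its highest level was unevenly distributed. No.1 was the highest sample of 26 of the 52 contigs (50%), against 16.4% of all contigs tested. It was the lowest sample of 1 contig (1.92%), against 13.4%. No.2, the sample in which most contigs of the whole table peaked (29%), was the highest for 6 element contigs (11.5%), and No.3 for 9 (17.3%), against 19.8%. No.7 was the highest for 5 (9.62%), against 10.3%, No.8 for 3 (5.77%), against 6.94%, No.6 for 2 (3.85%), against 5.16%, No.4 for 1 (1.92%), against 7.16%, and No.5 for none, against 5.28%. At the lower end, No.6 was the lowest sample of 16 contigs (30.8%), against 8.26%. No.5 was the lowest of 11 (21.2%), against 21.3%, No.2 of 10 (19.2%), against 24.5%, and No.7 of 9 (17.3%), against 9.33%. The lowest level lay in No.8 for 3 contigs (5.77%), against 8.93%, in No.3 for 1, against 4.23%, and in No.4 for 1, against 10.1%.

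The share highest in No.1 was above that of all contigs at both levels of counts. Among the 35 with a mean count from 5 to under 50, 19 were highest in No.1 (54.3%), against 16.3% of all such contigs, and among the 17 with a mean count of at least 50 there were 7 (41.2%), against 16.6%. Because several contigs share a protein, the count was repeated with the most counted contig of each matched protein, where 15 of 33 (45.5%) were highest in No.1, against 15.2% of all contigs reduced in the same way. With TMM factors the count was 26, with DESeq2 size factors 27, and 28 with totals that left out the 10 most counted contigs of the table. In 8 contigs (15.4%) the level in No.1 was at least 2 times that of the next sample, against 2.77% of all contigs tested. They were 4 reverse transcriptases (M_dom_rep_c6712, M_dom_c27994, M_dom_c35515 and M_dom_c35562), the copia contig M_dom_c1592, the tick transposon match M_dom_c18571, the *Ceratitis rosa* transposase match M_dom_rep_c35700 and M_dom_c24156. Some of these contigs reached the minimum mean count only through No.1. Among the 48 contigs that averaged at least 5 counts over the other 7 samples, 22 were highest in No.1 (45.8%), against 15.5% of all such contigs, and 6 were at least 2 times above the next sample (12.5%), against 2.25%. No.1 was the most deeply counted sample, and the part of depth in this count was not tested.

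**Figure D4:**
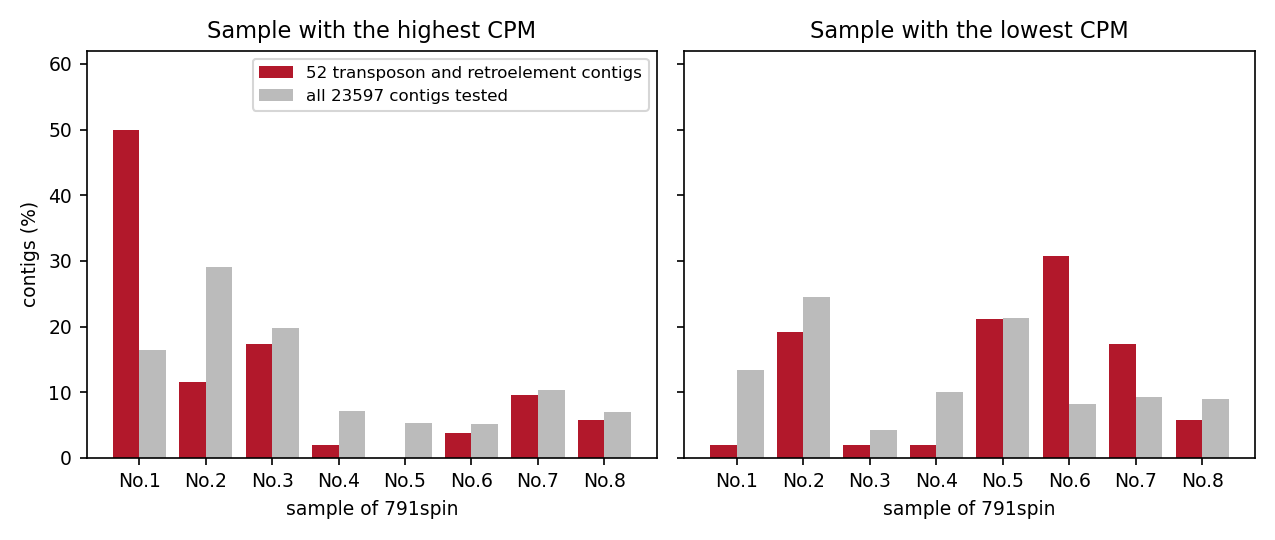
Percentage of contigs whose highest (left) or lowest (right) CPM was in each sample, for the 52 element contigs (red) and all 23597 contigs tested (grey). No.1 held the highest level of 50% of the element contigs and 16.4% of all contigs, and No.6 the lowest level of 30.8% and 8.26%.

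Contigs that matched the same protein shared this pattern to differing degrees. All 4 contigs matching the *A. aegypti* reverse transcriptase and all 4 matching the *C. rosa* transposase were highest in No.1. The same was true of 4 of the 5 contigs matching the *A. aegypti* reverse transcriptase-like protein and of 4 of the 6 matching the MhmaT1 transposase. The 6 contigs of the *D. melanogaster gag-pol* precursor were split, with No.1 highest in 2, No.3 in 2, No.7 in 1 and No.8 in 1, and both contigs of the house mosquito reverse transcriptase were highest in No.3. These counts include contigs below the mean count of 5 and, as contigs of 1 protein may be copies of 1 element, they are not independent. Among the *A. aegypti* reverse transcriptase contigs, M_dom_c24869 had 13 counts, 5 of them in No.1, and reached the minimum total count only through No.1. Contigs with the same matches under that minimum were left out. How often contigs of 1 protein shared their highest sample in the whole table was not taken.

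Some low contigs were seen in few samples. Counts in 4 or fewer samples were found for 7 of the 87 contigs. These 7 had 13 to 36 counts each. The same share over all contigs with at least 10 counts was not taken. The element contigs had a median of 66 counts, against 253 over all those contigs, and low counts alone can leave samples without a count. M_dom_c33457, a transposase match with 36 counts, had 6 counts for No.3, 6 for No.4, 10 for No.5 and 14 for No.6, and none in the other 4 samples. M_dom_rep_c10952, a *pol* polyprotein match, had 9 counts in No.1 and 6 in No.2 and none elsewhere. M_dom_rep_c35231, a transposase match to the wild silkmoth, had 11 of its 13 counts in No.1, and M_dom_c29780, a reverse transcriptase match to the silkworm, 12 of its 14. Both, like M_dom_rep_c10952, reached the minimum of 10 counts only through No.1. The choice of contigs thus favoured counts in No.1 among them. Samples without a count were under the limit set by 3 counts, so absence cannot be told from a level below 0.186 to 0.292 CPM.

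Few of the genes that silence elements were named by the annotation. Of 23 genes of the PIWI pathway searched by name, 2 had a contig, and the others, such as *aubergine*, *vasa* and *spindle-E*, matched none by annotation. The 3 contigs of *maelstrom*, which acts with PIWI in transcriptional silencing, summed to 6.52 CPM for No.1, 25.96 CPM for No.2, 13.99 CPM for No.3, 16.6 CPM for No.4, 8.17 CPM for No.5, 12.5 CPM for No.6, 9.90 CPM for No.7 and 12.6 CPM for No.8. It was lowest in No.1 and No.5, of which the former had the highest and the latter a low sum of element contigs, and highest in No.2 and No.4. The single PIWI contig, M_dom_c2065, had 17 counts, of which the level in No.2, 0.621 CPM, was the highest. Of the siRNA pathway, Argonaute-2 summed to 12.04 CPM for No.1, 12.4 CPM for No.2, 22.5 CPM for No.3, 25.8 CPM for No.4, 7.88 CPM for No.5, 14.8 CPM for No.6, 17.5 CPM for No.7 and 14.7 CPM for No.8. Its highest samples were No.3 and No.4. Loquacious, a double-stranded RNA binding partner of Dicer, ranged from 5.16 CPM for No.6 to 14.5 CPM for No.3, r2d2 had 2 counts and no contig was named dicer-2.

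Heterochromatin protein 1 (HP1), which binds silenced chromatin, summed over 4 contigs to 35.8 CPM for No.1, 147 CPM for No.2, 52.9 CPM for No.3, 72.7 CPM for No.4, 32.4 CPM for No.5, 60.5 CPM for No.6, 31.7 CPM for No.7 and 70.3 CPM for No.8. All even-numbered samples were above all odd-numbered ones. No contig was named *eggless*, *Su(var)3-9* or *windei*. Of the contigs of these lists that reached a mean count of 5, both *maelstrom* contigs, Argonaute-2, loquacious and all 4 of HP1 varied beyond counting error, as 95.1% of all contigs did, and 1 of these 8, a *maelstrom* contig, had a ratio of at least 10.

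Transcripts of the ovary and of egg yolk differed widely between the samples. The 6 contigs of *nanos*, a translational regulator stored in the egg, summed to 0.372 CPM for No.1, 92.7 CPM for No.2, 0.192 CPM for No.3, 25.9 CPM for No.4, 0.192 CPM for No.5, 4.48 CPM for No.6, 1.21 CPM for No.7 and 19.6 CPM for No.8. They were at 4.48 CPM or more in every even-numbered sample and at 1.21 CPM or less in every odd-numbered one. The yolk protein contigs summed to 19.9, 7.19, 126 and 29.4 CPM for No.1, No.3, No.5 and No.7 and to 205, 2810, 1827 and 3934 CPM for No.2, No.4, No.6 and No.8. Chorion and vitelline membrane contigs, the eggshell genes, reached 396 CPM for No.8 and 26.3 CPM for No.6 and were at 1.60 CPM or less in the others. The sum over the element contigs was 485 CPM or more in 3 samples that were low in *nanos* and yolk protein, but in No.5, also low in both, it was 244 CPM. No contig matched the testis markers searched or *bag of marbles*, so the male germ line could not be followed. The part of female tissue in the level of the element contigs was not tested.

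**Figure D5:**
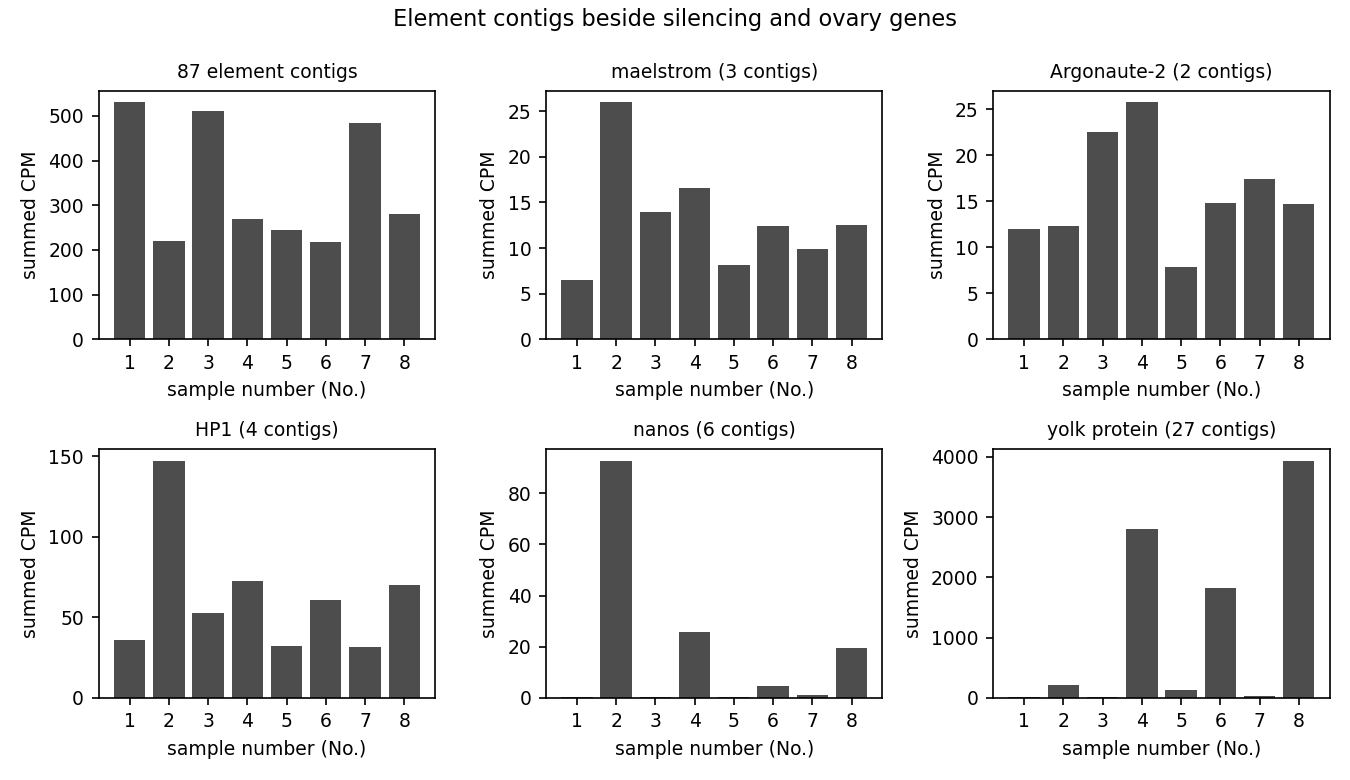
Summed level (CPM, linear axes from 0) in each sample of the 87 element contigs and of the contigs named for maelstrom, Argonaute-2, HP1, nanos and yolk protein, as bars, 1 panel each. The element contigs were highest in No.1, No.3 and No.7, maelstrom, HP1 and nanos in No.2, Argonaute-2 in No.4 and yolk protein in No.8.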

How the data were processed

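Whole-number counts of reads per contig were deposited by the authors without normalization for 8 samples, together with contig lengths and annotations. The scaled signal that the authors deposited beside them was not used. The contigs had been assembled from pyrosequencing reads with Newbler 2.6 and MIRA 4.0 and annotated by BLASTX in Blast2GO. No source used here gives the counting program or which reads were counted. Columns were matched to samples by title, and all samples carry 1 condition. CPM used the sample totals, and intervals and limits from counts cover counting error only. If the counts come from a normalized library, levels need not rank abundance.

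The contigs, families and gene lists were chosen with earlier results of these data known. Families followed words of the annotation, and Tc3, 297, TED, Tom, HMS-Beagle, R1DM and X-element were assigned after the annotations were read. Named contigs were the 10 with the highest mean CPM, the most counted of each family, the 5 with the largest and the 5 with the smallest ratio among those with a mean count of at least 50, matches to the housefly, host genes, and the most counted contig of each silencing gene. Others were named after their values were seen. Variation was tested by chi-square over contigs averaging 5 counts or more, with Benjamini-Hochberg adjustment. In R 4.3.3, dispersions came from edgeR 4.0.16 with TMM and an intercept, and alternatives from DESeq2 1.42.0. Tables, tests and plots were made in Python 3.11.15 with pandas 2.3.3, scipy 1.17.1, matplotlib 3.10.9 and numpy 2.4.6. On simulated counts for 23597 contigs, the test for variation between samples called 78% of contigs changed 2-fold, 100% of those changed 4-fold and 0.0556% of unchanged ones. These simulated counts held counting error only. The last value is therefore not a rate for data with further spread between samples. Alternatives were other scalings, count minimums, members and leaving out each sample.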

Additional observations from a re-analysis of the deposited data

Results flagged for a closer look

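A single sample stood far from the other 7, by Dixon's criterion for 8 samples, in 15 of the 47 values tested. Chance gives about 1 in 20 groups where values are normally distributed, and many of these values share contigs or samples. The values also include contigs named for a large ratio of highest to lowest sample, such as M_dom_c1592, M_dom_rep_c6712, M_dom_c1803 and M_dom_rep_c22503. In these the choice favoured a distant sample, so the count of 15 cannot be set against chance. The distant sample was the highest in each of the 15.

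No.1 stood apart for the sum of the element contigs without the 10 most counted (180 CPM, next 110 CPM), the 3 Tc3 contigs of the mariner/Tc1 family (4.90 CPM, next 1.46 CPM) and, among them, M_dom_c24156 (3.97 CPM), the transposases without a family word, MhmaT1 matches included (38.5 CPM, next 23.1 CPM), the reverse transcriptase match M_dom_rep_c6712 (20.7 CPM, next 3.52 CPM), and the copia contig M_dom_c1592, which is its whole family (23.1 CPM, next 3.16 CPM). No.3 stood apart for the TED match M_dom_c1803 (43.1 CPM, next 20.3 CPM), the tick transposon match M_dom_rep_c22503 (31.9 CPM, next 16.01 CPM) and the housefly transposase match M_dom_c27805 (0.958 CPM, which is 10 counts).

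No.2 stood apart for the reverse transcriptase match M_dom_rep_c5815 (48.7 CPM, next 22.7 CPM), and, among the genes set beside the elements, for HP1 (147 CPM, next 72.7 CPM), *nanos* (92.7 CPM, next 25.9 CPM) and PIWI (0.621 CPM). No.8 stood apart for the chorion and vitelline membrane contigs (396 CPM, next 26.3 CPM).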

How the results depend on the processing

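Of 109 values under alternatives other than leaving out a sample, 98 stayed within the spread between samples or within 1.5 times a count, and 11 moved. For 50 of the 109 the value was the level of a single contig under another scaling, and all 50 stayed. TMM factors ran from 0.827 to 1.21. Such factors can hardly move a mean by more than the spread between samples, so the unmoved levels under other scalings say little. Levels were compared only by their mean over the samples, so changes in the order of samples, as for No.5 under TMM, do not enter this count. Without its most counted contig, the mean summed level was 0.241 CPM for hAT, 0.368 CPM for pogo/Tigger, 19.01 CPM for the gypsy group, 0.136 CPM for BEL, 7.96 CPM for named non-LTR elements and 16.4 CPM for transposons of unnamed kind, because single contigs carried these families. Per contig length, the 10 highest contigs held 67.5% of the summed level, against 74.2% of counts on average over samples. With a minimum mean count of 50, fewer contigs were tested, and 17 of 17 varied and 5 had a ratio of at least 10. Leaving out each sample in turn gave 40 to 50 varying contigs, and 7 (without No.3) to 11 contigs with a ratio of at least 10. The share of counts was then between 0.0318% and 0.0363%, and the median dispersion between 0.283 and 0.423. The copia level fell to 1.23 CPM without No.1, and the mariner/Tc1 level was 1.16 CPM without No.1. In alternatives chosen after seeing the data, the share was 0.0405% ± 0.0216 with the contigs annotated to *Wolbachia*. The mariner/Tc1 mean was 12.02 CPM with the MhmaT1 contigs, and that of the transposases without a family word 11.2 CPM without them. No paired analysis was possible because every sample carries the same label. With all 87 contigs tested 70 varied, but at 10 to 39 counts (35 contigs) the chi-square approximation is weak, and counts of near-identical copies may be split between contigs.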

Other observations

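The rule left out contigs whose annotation names a bacterium. Among them M_dom_c4639, a phage integrase match to *Streptococcus urinalis*, had 193 counts, against a median of 66 for the element contigs. It was highest in No.1, at 7.01 CPM, with No.3 next at 2.68 CPM. The 2 most counted of those left out had 5493 and 1496 counts. M_dom_rep_c8961 and M_dom_c20160 matched a reverse transcriptase polyprotein of the *Wolbachia* endosymbiont of *Drosophila ananassae*, a bacterium living within insect cells. M_dom_rep_c8961 had 228 CPM for No.1, 22.4 CPM for No.2, 14.4 CPM for No.3, 4.62 CPM for No.4, 7.79 CPM for No.5, 9.84 CPM for No.6, 75.5 CPM for No.7 and 21.6 CPM for No.8. M_dom_c20160 had 64.7 CPM for No.1, 7.32 CPM for No.2, 4.89 CPM for No.3, 0.472 CPM for No.4, 1.25 CPM for No.5, 2.82 CPM for No.6, 18.1 CPM for No.7 and 3.55 CPM for No.8. Both were highest in No.1, next in No.7 and lowest in No.4.

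The other 13 contigs annotated to *Wolbachia* did not have this order. They summed to 252 CPM for No.1, 70.5 CPM for No.2, 311 CPM for No.3, 367 CPM for No.4, 241 CPM for No.5, 179 CPM for No.6, 456 CPM for No.7 and 308 CPM for No.8. No.4 was the second highest sample there, whereas it was the lowest for both reverse transcriptase contigs. Whether these contigs come from the housefly genome or from a bacterium was not tested.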
